A study of Mus musculus with 6 samples.

Results

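The trophoblast lineage factors Cdx2, Eomes, Elf5, Tfap2c, Gata3, Hand1, Krt8, Krt18 and Tead4 were examined in mouse embryonic stem (ES) cells. They were chosen by gene symbol: every probe set whose only symbol in the annotation of the array was one of these 9 genes was kept, which gave 18 of the 45037 probe sets tested and 9 of the 18193 genes represented. The 9 genes were selected with earlier results of these data known, among them a lower level of Tfap2c in one of the clones, so the differences between clones are given as a description with no test. Of the 9 genes, 7 were represented by 2 or more probe sets, and all 18 probe sets matched a RefSeq gene by identifier.

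The cells descend from the mouse ES line EBRTcH3 (EB3). Each carried, in the ROSA26 locus, a human GTF2IRD2 coding sequence with a 3xFLAG tag and no untranslated regions, behind a promoter that tetracycline silences (the tet-off system). GTF2IRD2 is a transcription factor gene of the TFII-I family linked to Williams-Beuren syndrome, and the comparison asked which mouse genes respond when it is switched on. The 3 clones A3, A4 and A5 were each hybridised to 1 Affymetrix whole-genome array as an uninduced culture with tetracycline (0 h) and to 1 array as an induced culture, 24 h after tetracycline was withdrawn, so that each group held 3 arrays and each clone 2. All cultures were kept undifferentiated in serum medium with leukaemia inhibitory factor. Each clone is 1 picked line, both groups carry the transgene, and no array of a line without it was analysed, so an effect of tetracycline withdrawal alone cannot be told apart from that of the transgene. The mouse probes do not report the level of the human transgene. The study measured it by RT-PCR relative to Actb. In each of the 3 clones transgene RNA was much higher at 24 h than at 0 h, and it was highest in A3 at both times. The part of these levels in the differences between clones was not tested. The GTF2IRD2 insert printed with the study is also much shorter than those printed for its relatives GTF2I and GTF2IRD1, so whether the full-length factor was made is not known here.

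Trophoblast is the outer lineage of the mouse blastocyst and forms the fetal part of the placenta. TEAD4, working with the Hippo pathway cofactor YAP, switches on Cdx2 and Gata3 in outer cells. CDX2, EOMES, ELF5 and TFAP2C then sustain trophoblast stem cells, HAND1 drives giant cell differentiation, and keratins 8 and 18 form the filaments of the trophectoderm epithelium. ES cells descend from the inner cell mass, where OCT4 and NANOG hold this programme down. Some of these genes are also used outside trophoblast: Tfap2c in naive pluripotent cells and germ cells, Eomes in mesoderm and endoderm, and Krt8 and Krt18 in simple epithelia in general.

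The cultures carried the markers of ES cells. The 11 genes of an ES cell list had means of 9.83 to 13.88 on the log2 scale and the mean over the list lay between 11.75 and 11.78 on every array. That mean does not show the clones to be alike gene by gene. Both A3 arrays lay below the other 4 for 4 of the 11 genes and above them for 3, against 13.5% and 12.1% of all probe sets. Pou5f1, which encodes OCT4, averaged 12.56 for A3, 12.63 for A4 and 12.54 for A5. A list of 10 fibroblast and feeder cell genes had a mean of 4.55 to 4.63 on every array. Array medians were 5.03 to 5.07, and the correlation of any 2 arrays was 0.996 to 0.998. Spots on such arrays bind their targets with different strength, so differences are taken within a probe set. Levels set across probe sets, as for these lists and the percentiles below, are a rough guide only. These are bulk cultures, and fewer cells expressing a gene and less RNA per cell cannot be told apart.

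Promoters of the genes are shown first for members whose level differed between clones in the values given further on, with 250 bases before and 50 bases after the annotated start, from RefSeq on GRCm38.p6. The promoter table held 7 promoters for 6 of the 9 genes (Cdx2, Eomes, Elf5, Gata3, Krt8 and Krt18). The 3 below were printed because Eomes, Krt8 and Krt18 had both arrays of clone A3 below the other arrays in at least 1 probe set. Capitals mark matches, on either strand, to 5 motifs: GCCNNNGGC of AP-2 factors such as TFAP2C, GGAATG of TEAD factors, AGATAA of GATA factors, GGTGTGA of T-box factors such as EOMES, and the TATA box TATAAA.
Eomes, chr9:118477939-118478238, plus strand: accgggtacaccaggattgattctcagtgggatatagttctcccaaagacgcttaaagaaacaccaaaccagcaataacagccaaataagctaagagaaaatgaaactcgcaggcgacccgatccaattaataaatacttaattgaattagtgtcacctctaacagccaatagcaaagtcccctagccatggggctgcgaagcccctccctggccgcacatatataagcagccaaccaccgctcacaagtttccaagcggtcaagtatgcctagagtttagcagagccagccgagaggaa
Krt8, chr15:102004293-102004592, minus strand: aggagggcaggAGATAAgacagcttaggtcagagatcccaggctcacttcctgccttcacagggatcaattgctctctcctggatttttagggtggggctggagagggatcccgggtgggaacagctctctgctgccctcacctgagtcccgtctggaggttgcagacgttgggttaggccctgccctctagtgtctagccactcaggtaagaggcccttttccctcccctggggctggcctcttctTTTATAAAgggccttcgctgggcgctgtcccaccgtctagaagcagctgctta
Krt18, chr15:102027966-102028265, plus strand: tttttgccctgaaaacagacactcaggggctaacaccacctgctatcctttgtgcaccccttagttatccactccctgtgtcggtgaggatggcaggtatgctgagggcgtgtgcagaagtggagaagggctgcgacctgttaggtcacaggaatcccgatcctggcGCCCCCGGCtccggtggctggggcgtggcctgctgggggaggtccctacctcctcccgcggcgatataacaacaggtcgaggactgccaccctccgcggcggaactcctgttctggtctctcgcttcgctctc

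Krt18 held 1 AP-2 match, GCCCCCGGC at -83 from the annotated start, and this motif was present in 16.6% of all 32851 promoters of the same length. Krt8 held 1 GATA match at -239, a motif present in 11.2% of promoters. It also held 2 overlapping TATA matches (TTTATA and TATAAA, the same motif on opposite strands) at -3 and -1, where 13.6% of promoters held 1 or more. Eomes held no match to any of the 5 motifs in this window, and TEAD and T-box matches, present in 14.7% and 3.98% of promoters, were found in none of the 3. Among the promoters not printed, Cdx2 held 1 AP-2 match at -16 and Gata3 held 3 at -246, -231 and -221. Elf5 had 2 promoters, the first with a TEAD match at -173 and the second with a T-box match at -72. These matches describe letters and not bound sites. Krt8 and Krt18, whose proteins pair into filaments, lie close together on chromosome 15. RefSeq places 2 long non-coding RNA genes within the whole stretch that the pair spans, gene bodies included. The other 7 genes lie on chromosomes 2, 5, 6, 9 and 11.

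TEAD4 is the most upstream of these factors. The probe set 1460683_at of Tead4 read 6.05 uninduced and 6.00 induced in A3, 6.32 and 6.38 in A4, and 6.37 and 6.20 in A5. The second, 1426337_a_at, read 5.43 and 5.10 in A3, 5.94 and 5.92 in A4, and 6.00 and 5.81 in A5. On both probe sets the A3 arrays were the lowest of the 6 and the arrays of A4 and A5 overlapped. The mean of A3 was 0.29 below that of the other arrays on the first (1.23-fold) and 0.65 below on the second (1.57-fold), whose uninduced and induced A3 arrays themselves differed by 0.33.

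Cdx2 and Gata3, the first targets of TEAD4 in outer cells, were below the middle of the array, at percentiles 34.6 and 45.2 of all probe set means for Cdx2 and 14.1 for Gata3. Cdx2 read 4.11 and 4.16 in A3, 4.16 and 4.12 in A4, and 4.12 and 4.20 in A5 on 1422074_at. On 1422075_at it read 4.76 and 4.50 in A3, 4.78 and 4.76 in A4, and 4.98 and 4.75 in A5. Gata3, with the single probe set 1448886_at, read 3.05 and 3.13 in A3, 3.09 and 3.09 in A4, and 3.05 and 2.89 in A5. On these 3 probe sets no clone had both arrays outside the other 4, and the Gata3 means were 3.09 for A3, 3.09 for A4 and 2.97 for A5. Elf5, which locks in trophoblast identity, lay at percentiles 30.6 and 15.0. Its probe set 1419555_at read 3.96 and 3.80 in A3, 4.02 and 4.15 in A4, and 3.91 and 3.69 in A5, and 1419556_at lay between 3.02 and 3.17 on all 6 arrays. On the first of them both A4 arrays were the highest, by 0.06 over the nearest other array, and on the second no clone stood apart from the other 4 arrays.

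Eomes encodes the T-box factor of trophoblast stem cells. Its probe set 1426001_at read 6.04 and 5.98 in A3, 6.76 and 7.01 in A4, and 6.67 and 6.61 in A5. Its other probe set, 1435172_at, read 5.92 and 5.62 in A3, 6.55 and 6.53 in A4, and 6.40 and 6.52 in A5. The A3 arrays were lowest on both, by 0.57 and 0.49 below the nearest other array, and A4 was highest on both, by 0.09 and 0.02. The mean of A3 lay 0.75 below that of A4 and A5 on the first (1.68-fold) and 0.73 below on the second (1.66-fold), against differences of at most 0.25 and 0.30 between the 2 arrays of a clone.

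Tfap2c, which encodes the AP-2 gamma factor, showed the widest separation of clones among the 9 genes. The brightest of its 3 probe sets, 1436392_s_at, read 8.32 uninduced and 8.31 induced in A3, 9.42 and 9.42 in A4, and 9.05 and 9.15 in A5. The probe set 1448977_at read 7.36 and 7.10 in A3, 8.37 and 8.24 in A4, and 8.04 and 8.05 in A5. The probe set 1418147_at read 7.28 and 7.02 in A3, 8.19 and 8.16 in A4, and 7.96 and 7.83 in A5. All 3 gave the same order, with A3 lowest, A5 between and A4 highest, and no overlap of any clone with another. The A3 mean was below that of the other arrays by 0.95 (1.93-fold), 0.95 (1.93-fold) and 0.89 (1.85-fold), and A4 stood above the nearest A5 array by 0.27, 0.19 and 0.20. The suffix s_at marks a probe set that may also detect other transcripts, and both probe sets without it gave the same order. This difference was one that the choice of genes used, and it is given as values only.

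Hand1, the giant cell factor, lay in the middle range of the array, at percentiles 50.5 and 43.3 of all probe set means. On 1417525_at it read 5.01 and 4.89 in A3, 5.23 and 5.12 in A4, and 5.12 and 5.12 in A5, so that A3 was lowest by 0.11 and its mean lay 0.20 below the others (1.15-fold). On 1448750_at it read 4.60 and 4.65 in A3, 4.53 and 4.65 in A4, and 4.62 and 4.76 in A5, and all clones overlapped. The separation seen on one Hand1 probe set was therefore not present on the other.

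The keratin genes Krt8 and Krt18 encode the type II and type I partners of the same filament. Krt18, on 1448169_at, read 6.66 and 6.40 in A3, 7.05 and 7.09 in A4, and 7.06 and 7.16 in A5. Its A3 mean was 0.56 below the others (1.47-fold), its A3 arrays were lowest by 0.39, and A4 and A5 overlapped. The clone means of Krt8 had the same order, with A3 lowest and A5 highest, but other gaps. Its probe set 1420647_a_at read 7.13 and 7.09 in A3, 7.16 and 7.35 in A4, and 7.47 and 7.51 in A5, and 1423691_x_at read 6.78 and 6.66, 6.81 and 6.83, and 7.17 and 7.16 in the same clones. On 1435989_x_at it read 6.76 and 6.85 in A3, 6.79 and 6.93 in A4, and 7.05 and 7.12 in A5. A5 was highest on all 3 Krt8 probe sets, by 0.13, 0.34 and 0.12, whereas A3 was separate from A4 by only 0.03 on the first 2 and overlapped it on the third. The suffix x_at also marks probe sets that may detect related transcripts, here other keratins.

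**Figure D1:**
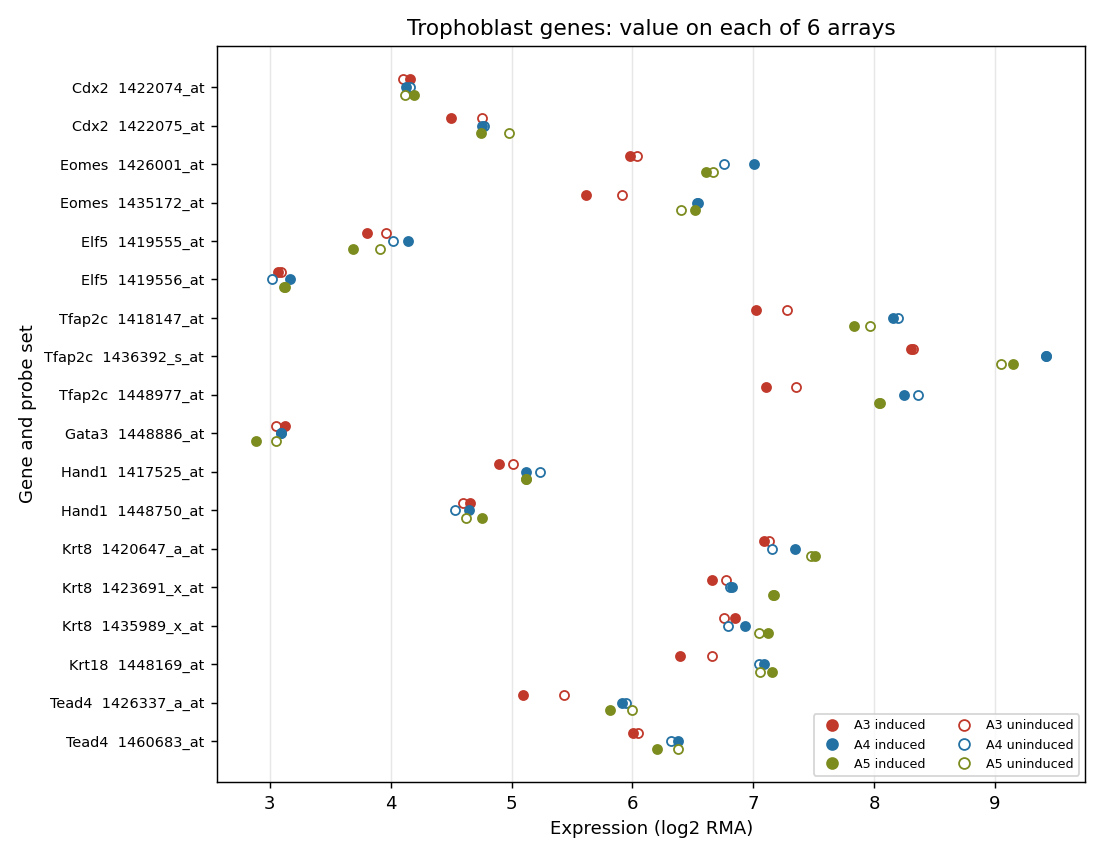
Expression (log2 RMA, x axis) of each of the 18 probe sets of the 9 genes (y axis) on each of the 6 arrays, coloured by clone, with open circles for uninduced and filled circles for induced cultures. The A3 circles of Tfap2c (7.02 to 8.32) and Eomes (5.62 to 6.04) lie to the left of those of A4 and A5, while Cdx2, Elf5 and Gata3 lie under 5 in every clone.

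Counted together, both A3 arrays lay below the other 4 on 11 of the 18 probe sets, of 6 genes (Eomes, Tfap2c, Hand1, Krt8, Krt18 and Tead4), and above them on 0. Over all 45037 probe sets the shares were 13.5% below and 12.1% above. Since the genes were chosen with this contrast known, nothing is read from the difference. The 7 probe sets without the separation were both of Cdx2, both of Elf5, the Gata3 one, 1 of Hand1 and 1 of Krt8. At the edge of the count, the A3 arrays of Krt8 were below by 0.03 on 1420647_a_at and 1423691_x_at, and those of Cdx2 missed by 0.01 on 1422075_at. Where the mean was 5 or more the count was 11 of 12, against 17.2% of all probe sets of that brightness. Both A4 arrays lay above the other 4 on 7 probe sets (3 of Tfap2c, 2 of Eomes, 1 of Elf5 and 1 of Hand1) and below them on 0, against 10.0% and 9.65% of all probe sets. Both A5 arrays were above on 3, all of Krt8, and below on 0, against 6.69% and 5.80%. The median of A3 minus the other clones was -0.27 over the 18 probe sets and -0.00840 over all probe sets.

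**Figure D2:**
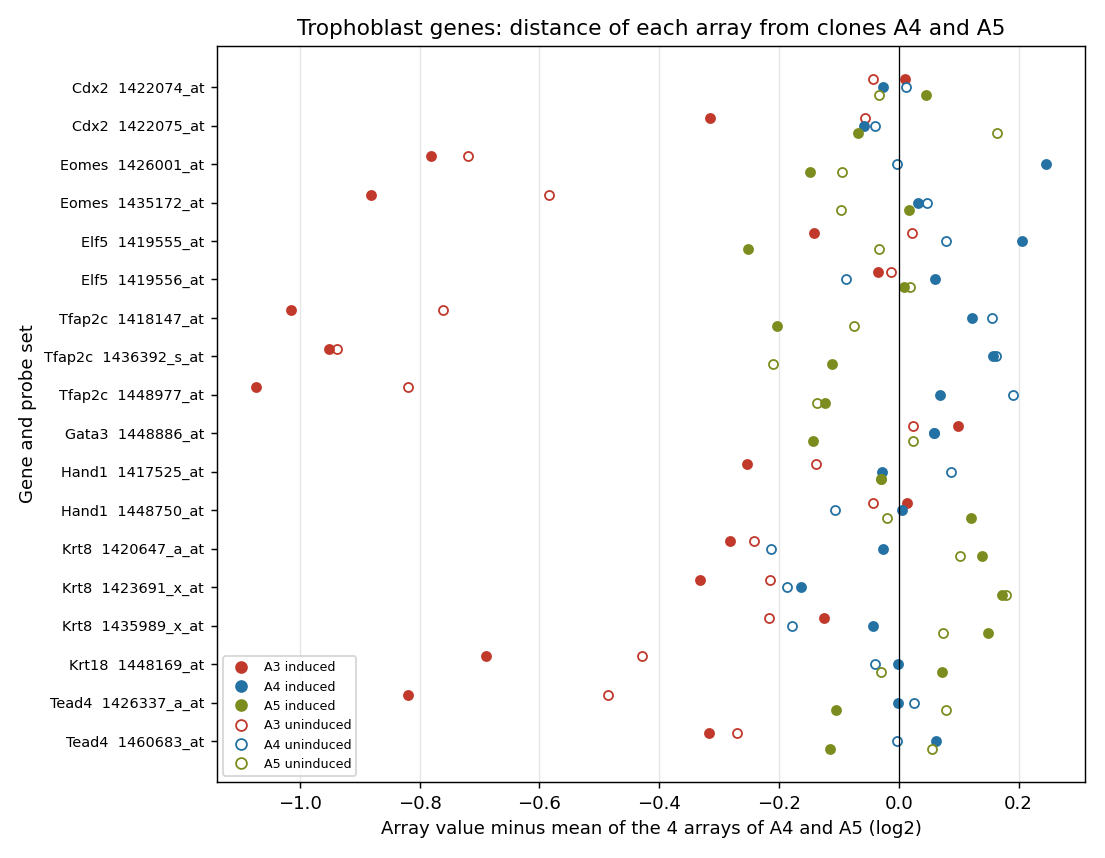
Value of each array minus the mean of the 4 arrays of A4 and A5 (log2, x axis) for the 18 probe sets (y axis), coloured by clone and open for uninduced cultures. Tfap2c, Eomes, Krt18 and Tead4 have both A3 circles left of all others, with Tfap2c farthest left, and within the Krt8 probe sets the A5 circles are the rightmost.

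One measured property of the arrays moved with this contrast by a narrow margin, and also with induction. The poly-A RNA spikes, added to the RNA before labelling, averaged 6.17 and 6.46 on the A3 arrays, 6.03 and 6.11 on those of A4, and 5.71 and 6.15 on those of A5. Both A3 arrays were thus the highest, but the lower of them, at 6.17, was close to the induced A5 array at 6.15. In every clone the poly-A and the hybridisation spikes read higher on the induced array than on the uninduced one. The hybridisation spikes, at 9.65 to 9.85, and the difference between 3' and 5' probes, at 0.27 to 0.36 for Actb and 0.03 to 0.12 for Gapdh, did not separate A3. The part of the spikes in the differences between clones or after induction was not tested.

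Induction moved none of the 9 genes past the threshold. With limma, 0 of the 18 probe sets had an adjusted p under 0.05, as did 0 of all 45037 (a share of 0%), and 0 of the 18 had an unadjusted p under 0.05, against 1404 of all (3.12%). With the clone as a block limma called 0, and the count at an unadjusted p under 0.05 was 0 for the members and 2597 for all probe sets. The per-gene test named in the study's methods called 0, with 1681 of all probe sets at that unadjusted level. The induced minus uninduced differences of the 18 probe sets ranged from -0.18 to 0.10, with 7 above 0 and 11 below and a median of -0.04, against a median of -0.00373 over all probe sets. Each adjusted p was 1.00 in limma.

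Tfap2c on its brightest probe set averaged 8.93 ± 0.56 over uninduced and 8.96 ± 0.58 over induced cultures (SD, n = 3), and its difference was 0.03 ± 0.33 (SE of limma). Within clones it was -0.01 for A3, -0.0041 for A4 and 0.10 for A5. The 95% interval of the difference ran from -0.72 to 0.77 without the block and from -0.13 to 0.19 with it, since the block takes out the distance between clones. The other probe sets gave -0.12 ± 0.32 and -0.14 ± 0.31, and the latter, 1418147_at, was lower in all 3 induced cultures, with -0.25 for A3, -0.03 for A4 and -0.13 for A5. The 3 probe sets thus disagreed in sign. With the clone as a block their SEs were 0.07 to 0.08, and each 95% interval still held both signs. Eomes had differences of 0.04 ± 0.27 and -0.07 ± 0.25, and its clones went both ways, with -0.06 for A3, 0.25 for A4 and -0.05 for A5 on the first probe set.

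Differences of one sign in all 3 clones were found on 5 probe sets. Lower in each induced culture were 3, namely Cdx2 on 1422075_at, Tfap2c on 1418147_at and Tead4 on 1426337_a_at, against 13.7% of all probe sets. Higher in each were 2, Hand1 on 1448750_at and Krt8 on 1435989_x_at, against 12.2%. Cdx2 on 1422075_at averaged 4.84 ± 0.12 uninduced and 4.67 ± 0.15 induced (SD, n = 3), a difference of -0.17 ± 0.10 (SE), with -0.26 for A3, -0.02 for A4 and -0.23 for A5. Its other probe set gave 0.03 ± 0.07. Tead4 on 1426337_a_at had a difference of -0.18 ± 0.23, with -0.33 for A3, -0.03 for A4 and -0.18 for A5. It had the smallest p of the members with the clone as a block (limma, adjusted p = 0.843), with an interval from -0.37 to 0.003, and its other probe set gave -0.05 ± 0.12.

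The remaining members had differences near their errors. Hand1 gave -0.08 ± 0.09 on one probe set and 0.10 ± 0.07 on the other, and the latter had 0.06 for A3, 0.11 for A4 and 0.14 for A5. Krt8 gave 0.06 ± 0.13, -0.03 ± 0.15 and 0.10 ± 0.11. Krt18 gave -0.04 ± 0.20, and its clones spread from -0.26 for A3 to 0.04 for A4 and 0.10 for A5. Gata3 gave -0.03 ± 0.08, and Elf5 gave -0.09 ± 0.12 and 0.04 ± 0.07. Elf5 on 1419555_at passed an unadjusted p of 0.05 when the induced A4 array was left out, with a difference of -0.22 (limma, adjusted p = 0.999), and was the only member to do so in any setting run. Over the 18 probe sets the median half-width of the 95% interval was 0.29, against 0.20 over all probe sets, and the farthest end of a member's interval ranged from a 1.13-fold difference (Cdx2 on 1422074_at) to a 1.82-fold one (Tfap2c on 1448977_at). With the clone as a block the farthest end of any member was 1.29-fold (Tead4 on 1426337_a_at).

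**Figure D3:**
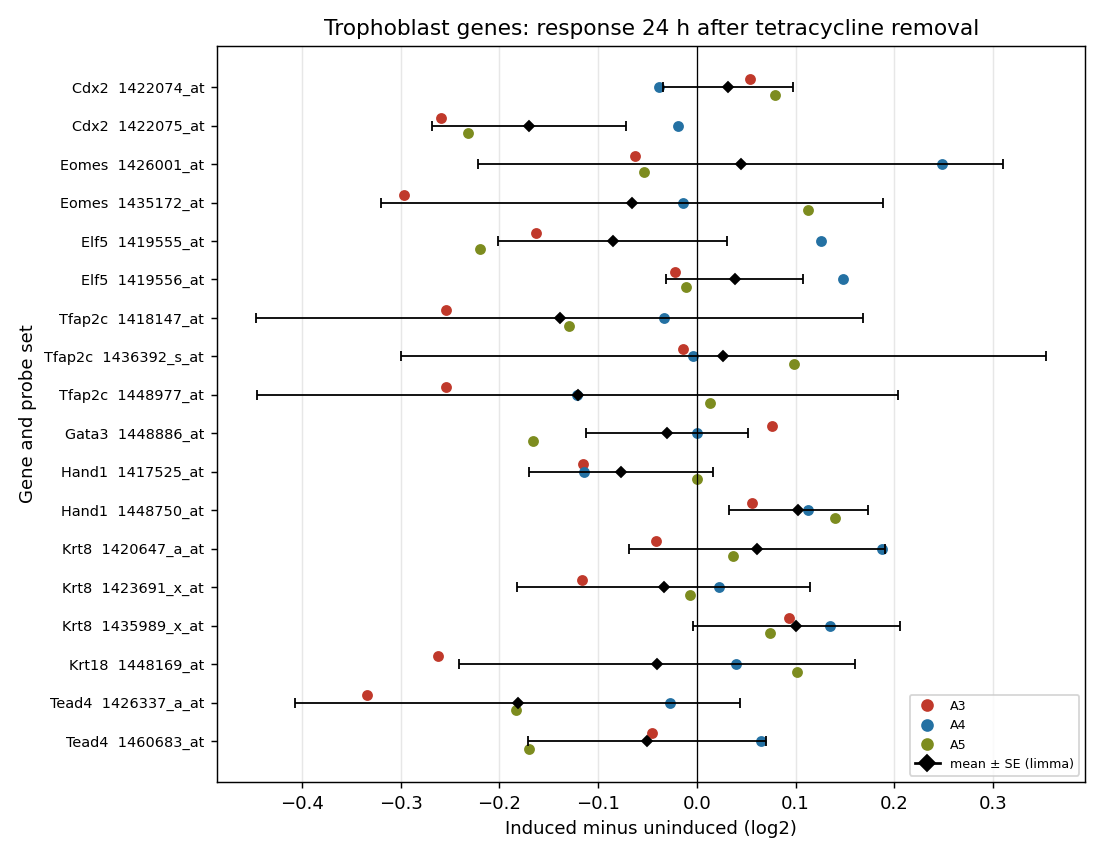
Induced minus uninduced difference (log2, x axis) of the 18 probe sets (y axis), with 1 circle per clone and a diamond with bars for the mean and SE of limma without a block. All means lie between -0.18 and 0.10, and the widest bars are those of Tfap2c, whose SEs are 0.31 to 0.33.

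Other genes of the pathways around these factors were read from lists, with the brightest probe set standing for a gene. In the list of other trophoblast transcription factors 14 of 15 genes were measured, 7 higher and 7 lower after induction, with a median of -0.01, and 0 passed the threshold in limma in either direction. Without the block only Ovol2, a zinc finger factor of trophoblast differentiation, had an unadjusted p under 0.05, with -0.26 ± 0.07 (limma, adjusted p = 1.00). Its means in the clones were 4.51 to 4.58. With the clone as a block the count was 3, namely Ovol2, Ascl2 and Id2. Ascl2, an imprinted factor of the spongiotrophoblast, had a difference of 0.39 ± 0.28 on this probe set, with 0.24 for A3, 0.49 for A4 and 0.44 for A5 (interval with the block 0.21 to 0.57). Its other probe sets gave 0.51 ± 0.25 and 0.71 ± 0.36, and with the block all 3 had an adjusted p = 0.843 in limma. Between clones, both A3 arrays were below the others for 1 of the 14 genes and above for 3, and the shares of all probe sets to set beside this and the other lists are 13.5% below and 12.1% above. Ascl2 averaged 7.73 for A3, 6.97 for A4 and 6.86 for A5, and Id2, an inhibitor of basic helix-loop-helix factors in trophoblast, had 8.80, 8.02 and 7.57. Both were thus highest in A3, the clone in which Tfap2c and Eomes were lowest. Klf5, which is needed for trophectoderm, had 12.08, 12.16 and 12.32.

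The Hippo pathway, which controls TEAD factors, had 18 of 19 genes measured, 8 higher and 10 lower after induction with a median of -0.00694, and 0 called. Tead1, a close relative of Tead4, had the smallest p of the list with a difference of -0.19 ± 0.10 (limma, adjusted p = 1.00), and Tead3 had -0.13 ± 0.08. Both A3 arrays were below the others for 5 genes and above for 2. Tead2, another TEAD gene, averaged 7.83 for A3, 8.41 for A4 and 8.37 for A5, which is the order of Tead4. Amotl2, an angiomotin that holds YAP at junctions, had 9.60, 8.89 and 9.15, and Ccn2, a common target of YAP, had 9.79, 9.08 and 9.12, both highest in A3.

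The trophectoderm epithelium list had 14 of 15 genes measured, 8 higher and 6 lower, a median of 0.03 and 0 called. A3 was below for 2 of the 14 genes and above for 3. Aqp3, a water channel, was lowest in A3 with 6.63 against 7.62 in A4 and 7.35 in A5, while Lgals3, a galectin, had 11.17, 10.59 and 10.44, and Atp1b1, the sodium pump subunit that drives blastocoel fluid, had 10.59, 9.97 and 10.18. Members of this list thus lay on both sides in A3. In the signalling list of trophoblast stem cells 10 of 12 genes were measured, 4 higher and 6 lower with a median of -0.02 and 0 called, and A3 was below for 6 and above for 3 (13.5% and 12.1% of all probe sets). Bmp4, a ligand of the early embryo, had 9.64, 10.23 and 10.29, Furin, a protease that activates Nodal and Bmp4, had 5.91, 6.34 and 6.50, and Dusp6, a phosphatase induced by Fgf signalling, had 8.93, 9.23 and 9.49.

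Products of mature placental trophoblast were mostly dim. Of 25 genes 18 were measured, 11 of them with a mean under 5, and 11 were higher and 7 lower after induction with a median of 0.01 and 0 called. Without the block Ctsq, a placental cathepsin, was the only one with an unadjusted p under 0.05, at -0.20 ± 0.08 (limma, adjusted p = 1.00). With the clone as a block the count was also 1. Tpbpa, which defines spongiotrophoblast, had means of 2.99 to 3.04 in the clones. The homeobox genes Rhox6 and Rhox9, which are expressed in placenta and germ cells, had the widest clone ranges of this list, with 6.66 for A3, 8.06 for A4 and 7.43 for A5 in the case of Rhox6 and 6.49, 7.70 and 7.11 for Rhox9. That is the order of Tfap2c. In this list A3 was below for 3 genes and above for 2.

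The pluripotency factors that hold trophoblast genes down had 15 of 16 genes measured, 6 higher and 9 lower after induction with a median of -0.02 and 0 called, and A3 was below for 3 and above for 2. Prdm14, which represses differentiation genes in ES and germ cells, averaged 7.45 for A3, 8.19 for A4 and 8.01 for A5. Dnmt3b, a de novo DNA methyltransferase, had 11.78, 11.40 and 11.32. Among the 5 AP-2 genes Tfap2c was the only one with both A3 arrays outside the others, and Tfap2b, Tfap2d and Tfap2e had means under 5.

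**Figure D4:**
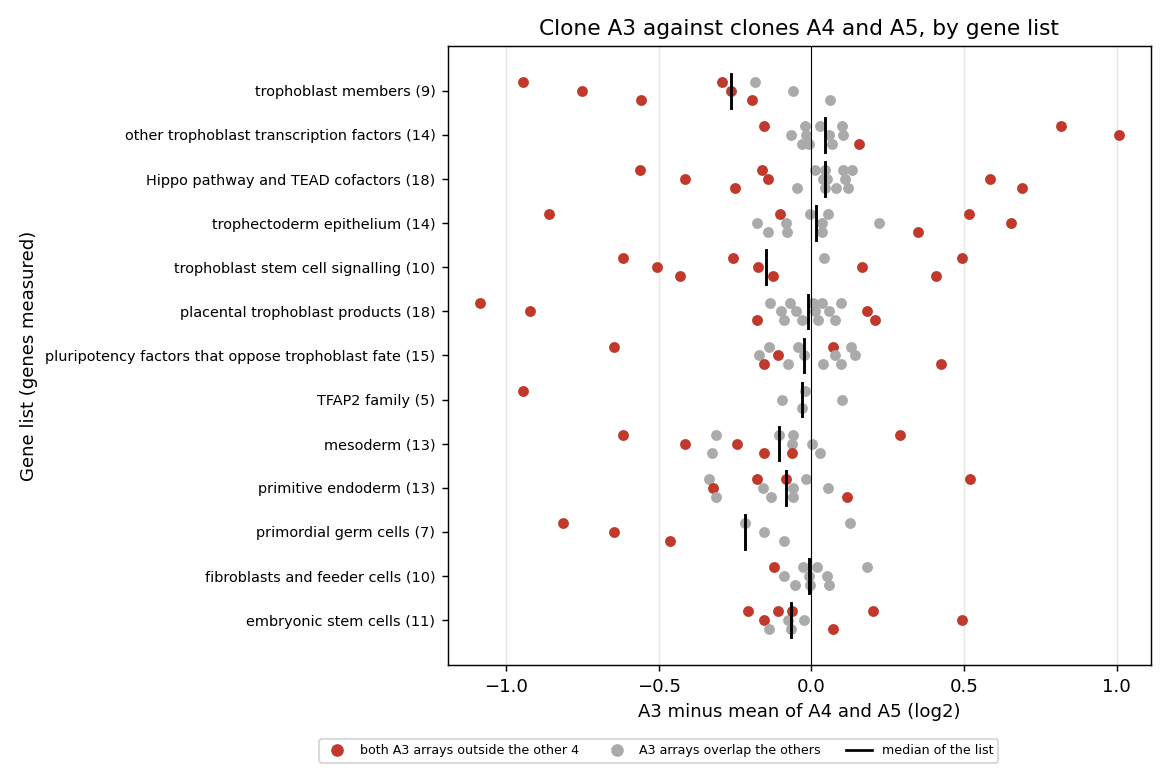
Mean of A3 minus the mean of A4 and A5 (log2, x axis) for the genes of each list (y axis), 1 circle per gene, red where both A3 arrays lie outside the other 4, with a black line at the median of the list. The 9 trophoblast genes have 6 red circles below 0 and a median of -0.26, while the other trophoblast factors have Ascl2 (0.82) and Id2 (1.01) on the right.

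The genes whose pattern over the 6 arrays was most like that of Tfap2c were ranked by Pearson's r with its brightest probe set, over 11926 genes with a mean of at least 5. The arrays come in pairs from 3 clones, so a high r needs little more than the same order of clones. The nearest were Lrp11 (r = 0.999), Eef2kmt (0.998), Fbxw2 (0.998), Ppdpf (0.997) and Fads2 (0.997). Their A3 means were below those of the other clones by 0.40, 0.22, 0.17, 0.67 and 0.62 in that order. Among the members r was 0.975 for Eomes (rank 137), 0.906 for Tead4, 0.905 for Krt18, 0.898 for Hand1 and 0.544 for Krt8 (rank 4154).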

How the data were processed

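Total RNA of 6 cultures was hybridised to Affymetrix mouse whole-genome arrays. The deposited values are log2 expression values, 1 per probe set, which the authors made with RMA (background correction, quantile normalisation, summarisation) in the affy package. Versions, and which arrays were normalised together, are not given in the sources used here. Such normalisation pulls arrays to a common distribution, so a shift shared by most genes would not be seen.

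Of 45101 probe sets, 64 controls were set apart. Induced and uninduced arrays were compared over the other 45037 with limma 3.58.1 (lmFit, eBayes, two-sided) in R 4.3.3, without an intensity filter, with a Benjamini-Hochberg adjusted p under 0.05 as threshold. The study's methods name a t-test with that threshold and no pairing. The code of the fit was run on simulated data with known changes, independent arrays and no differences between clones. Genes were named from the annotation of the array (34945 probe sets with 1 symbol). Clones were described by their means and by whether both arrays of a clone lay outside the other 4.

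Groups and clones came from the sample labels. Induced and uninduced arrays of a clone deviated together from their group means (r = 0.524 in A3, 0.376 in A4, 0.210 in A5; -0.407 to 0.0689 between clones), so the clone was also used as a block. Without the block the p-values rest on the spread between these clones, and with it on the spread of the differences within them. Precision is limited by the number of arrays, and where the mean was 5 or more a 95% interval had a median half-width of 0.20 (log2).

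The members and lists were chosen with earlier results of these data known. All members are described. From each list up to 3 genes with the smallest limma p and up to 3 with the largest range of clone means could be named, with Ascl2, defining markers of cell types and the 5 genes most like Tfap2c. Alternatives were the block, the methods' t-test, a filter at a mean of 5, an intensity trend, median centring, leaving out arrays or clones, and the mean over the probe sets of a gene. Promoters came from RefSeq (GRCm38.p6). Scan dates were not used here.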

Additional observations from a re-analysis of the deposited data

How the results depend on the processing

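With limma, or the t-test where named, 0 member probe sets and 0 of all probe sets passed the threshold under every alternative run: the replicate block, the methods' t-test, a mean of at least 5, an intensity trend, median centring, and leaving out each array or clone. The number of all probe sets at an unadjusted p under 0.05 was 1404, but 2597 with the replicate block, 2200 without the uninduced A4 array, 811 without both A5 arrays, and 419 of 22874 at a mean of at least 5. Median centring changed the split of these from 536 higher and 868 lower to 735 and 661. The replicate block changed no call.

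The A3 minus A4 and A5 difference of Tfap2c stayed between -0.97 and -0.92 when an array was left out. The count of members with A3 below, whose alternatives were all chosen after seeing the data, was 11 to 13 when an array was left out, 11 at a mean of at least 5 and 10 with median centring. Leaving out an array can only keep or raise this count. All 11 probe sets of the main count had a mean of at least 5, so that filter could not lower it either. Of these settings only median centring could have lowered the count.

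Induced minus uninduced differences of 7 members changed sign in some settings when arrays or clones were left out. They ran from -0.19 to 0.32 for Eomes, -0.22 to 0.0097 for Elf5, -0.28 to 0.35 for Tfap2c, -0.083 to 0.044 for Gata3, -0.037 to 0.17 for Krt8, -0.18 to 0.20 for Krt18 and -0.15 to 0.046 for Tead4. Averaging the probe sets of a gene gave -0.011 for Eomes, -0.077 for Tfap2c and 0.013 for Hand1, in each case the opposite sign to the brightest probe set. Leaving out 1 array without the block keeps a clone in only 1 group, so distances between clones enter these differences. The ends of the Tfap2c range, -0.28 and 0.35, came from leaving out the uninduced or the induced A3 array. Without both arrays of A3, A4 or A5 its difference was 0.047, 0.042 and -0.0088. Settings without both arrays of a clone also changed the sign for Eomes, Gata3, Krt8, Krt18 and Tead4. The sign changes were not tested further.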

Other observations

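Lists of other cell types related to trophoblast showed no call after induction either. In limma 0 of 13 mesoderm genes, 0 of 13 primitive endoderm genes and 0 of 7 germ cell genes passed the threshold, and 0 of each had an unadjusted p under 0.05, against 1, 2 and 0 with the clone as a block. Of the mesoderm genes 9 had a mean under 5, and of the primitive endoderm genes 6. Sox7, a primitive endoderm factor, had the largest difference of that list's named genes, -0.36 ± 0.17 (limma, adjusted p = 1.00), and Pdgfra, a receptor of primitive endoderm and mesoderm, had 0.31 ± 0.14.

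Between clones, both A3 arrays were below the others for 5 of the 13 mesoderm genes, 3 of the 13 primitive endoderm genes and 3 of the 7 germ cell genes, and above for 1, 2 and 0, against 13.5% below and 12.1% above over all probe sets. The germ cell genes were Dppa3, averaging 7.71 for A3, 8.91 for A4 and 8.13 for A5, Prdm14, given with the pluripotency factors, and Kit, a receptor kinase, with 8.02, 8.52 and 8.45. Lama1, a laminin chain of the basement membrane, was highest in A3, with 8.39 against 7.69 and 8.05.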
